A study of Mus musculus with 12 samples.

Results

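The genes described here are 9 signals and regulators of the stroma that surrounds crypts and villi: the bone morphogenetic proteins Bmp4, Bmp5 and Bmp2, the BMP antagonist Grem1, the Wnt ligand Wnt5a, the secreted Wnt antagonist Sfrp1, the Wnt potentiator Rspo3, the growth factor Fgf7 and the transcription factor Foxl1. They were taken by name, with earlier results of these data known. They are 9 of the 19938 genes that have a probe set with exactly 1 gene symbol, and each of the 9 has 1 such probe set. Mucosal scrapings of the small intestine of male C57BL/6J mice had been measured on Affymetrix Mouse Gene 1.0 ST arrays, with 1 array for each combination of segment, age and diet, 12 arrays in all. The old mice were 21 months and the young mice 4 months of age, and each age group received a high-fat diet with 45% or a low-fat diet with 10% of energy from fat for 2 weeks. All mice had first received chow and then the low-fat diet, although the labels and the study's methods differ on how long. Each array carried pooled RNA of 8 old or 6 young mice, and the proximal, middle and distal array of a diet and age group came from the same animals, which makes 4 pools of mice.

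Stromal cells below the epithelium help to set the balance between dividing crypt cells and differentiated villus cells. BMP ligands, made along the villus core, hold back crypt cell division, while BMP antagonists made by muscle and fibroblasts around the crypt base keep this signal away from the stem cells. Wnt ligands and R-spondins from the stroma sustain the stem cells, and secreted Frizzled-related proteins bind Wnt ligands and limit their reach. Foxl1 marks telocytes, large stromal cells under the epithelium that make several of these factors.

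Of the 9 genes, 7 exceeded an intensity of 50 on at least 1 array and were among the 11920 genes tested. Rspo3 (intensity 23.4 to 30.5) and Foxl1 (24.2 to 30.9) stayed under 50 on every array, varied by 1.3-fold and 1.27-fold over the whole series, and were not tested with the others. Values of the remaining genes were modest: Bmp5 had the widest range, 45.2 to 289 (6.4-fold), and Sfrp1 the narrowest, 45.7 to 81.9 (1.79-fold). In genome build GRCm38.p6 Bmp4 lies at chr14:46383525-46390669, Bmp5 at chr9:75775365-75900316, Bmp2 at chr2:133552159-133562896 and Grem1 at chr2:113748675-113758648. Wnt5a lies at chr14:28504543-28527448, Sfrp1 at chr8:23411383-23449632, Fgf7 at chr2:126034658-126091185, Rspo3 at chr10:29453106-29535867 and Foxl1 at chr8:121127685-121130644. Fgf7 was over 50 on 4 of the 12 arrays, Sfrp1 on 7, Wnt5a on 9, Grem1 on 10, Bmp5 on 11, and Bmp4 and Bmp2 on all 12. Levels are given below as log2 intensities and are compared between arrays for 1 gene, never between genes, since probe sets differ in brightness.

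Bmp4, Bmp5 and Grem1, the genes that passed the age test described below, have a promoter sequence in the RefSeq table of build GRCm38.p6, and these are shown because the 3 genes moved together with age. Each run is the 250 bases before the gene's start, 5′ to 3′ on the gene's own strand, and capitals mark GC boxes (GGGCGG on either strand) and a GC-rich SMAD element (GGCGCC). The windows are chr14:46390670-46390919 on the minus strand for Bmp4, chr9:75775115-75775364 on the plus strand for Bmp5 and chr2:113758649-113758898 on the minus strand for Grem1.
Bmp4: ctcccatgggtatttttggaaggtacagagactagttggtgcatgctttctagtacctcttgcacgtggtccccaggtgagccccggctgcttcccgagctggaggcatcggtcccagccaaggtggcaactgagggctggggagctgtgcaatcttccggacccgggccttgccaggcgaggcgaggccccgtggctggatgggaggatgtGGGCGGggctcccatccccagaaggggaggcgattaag
Bmp5: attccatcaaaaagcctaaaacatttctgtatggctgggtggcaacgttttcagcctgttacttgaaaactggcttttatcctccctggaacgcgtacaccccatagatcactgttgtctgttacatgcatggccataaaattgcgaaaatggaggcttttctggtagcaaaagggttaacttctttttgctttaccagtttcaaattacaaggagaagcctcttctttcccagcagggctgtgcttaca
Grem1: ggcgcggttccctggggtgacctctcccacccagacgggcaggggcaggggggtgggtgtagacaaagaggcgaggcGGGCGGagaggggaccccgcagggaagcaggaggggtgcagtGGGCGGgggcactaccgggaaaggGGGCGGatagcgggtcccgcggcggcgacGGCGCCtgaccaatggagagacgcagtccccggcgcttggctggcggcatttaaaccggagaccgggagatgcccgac
The windows differ in base composition, with 63.2% G and C for Bmp4, 42.8% for Bmp5 and 72.0% for Grem1, against a median of 52.4% over 32851 promoters. A GC box was found 1 time for Bmp4 and 3 times for Grem1, and 32.7% of all promoters of this length hold it. The SMAD element was found in Grem1 alone among the 4 of 9 genes with a promoter in the table (the other of the 4 is Fgf7), against 9.59% of all promoters. Neither a TATA box (TATAAA, 12.4% of all promoters) nor a GLI motif (GACCACCCA, 0.225%), both searched on both strands, was in any of the 4. These matches are descriptions of the sequence.

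The first comparison asked whether these signals differed between old and young mice. Bmp4, Bmp5 and Grem1 were lower in old mice in every segment and on both diets, in the mean over segments by 1.41-fold, 1.55-fold and 1.4-fold. All 7 tested genes had a negative old minus young difference. In this comparison 44.6% of all genes tested were lower in old mice. The median difference of the 7 genes was -0.42 on the log2 scale, against 0.01 over all genes tested.

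Bmp4, which is made by stromal cells of villi and around crypts, had proximal log2 intensities of 6.45 (high-fat) and 6.67 (low-fat) in old mice, against 7.10 and 7.48 in young mice. In the middle segment they were 6.68 and 6.30 in old mice, against 6.82 and 6.59 in young mice. The distal values were 5.80 and 6.53 in old mice, against 6.46 and 6.98 in young mice. Both old arrays lay below both young arrays in the proximal segment, an order that 16.4% of all genes tested had there. The ages overlapped in the middle and distal segments, where the diets differed by as much as the ages. Over the pools Bmp4 fell to a mean of 6.41 in old mice, against 6.91 in young mice (log2 difference -0.50, SE 0.05, limma adjusted p = 0.00686).

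Bmp5, a BMP ligand of villus stroma, had proximal log2 intensities of 7.14 (high-fat) and 7.22 (low-fat) in old mice, against 7.72 and 8.18 in young mice. Middle values were 7.35 and 6.90 in old mice, against 7.57 and 7.27 in young mice. In the distal segment the old mice had 5.50 and 6.90, against 6.79 and 7.28 in young mice. The distal array of old mice on the high-fat diet was the lowest of the 12, and the 2 ages overlapped in the middle and distal segments. On that array markers of other cells were low as well: against the young high-fat array, 6 of 6 B cell markers (median log2 difference -0.89), 7 of 8 T cell markers (-0.51), 8 of 10 myeloid markers (-0.32) and 7 of 8 crypt stem cell markers (-0.34) were lower. On the low-fat diet the distal age medians of these lists were 0.06, -0.05, -0.10 and -0.06. Not all lists were low on that array: in the high-fat pair 0 of 10 villus enterocyte markers (median 0.20) and 5 of 12 pan-epithelial markers (0.05) were lower. The part of these cells in the distal values of the niche signals was not tested. Over the pools Bmp5 fell to 6.84 in old mice, against 7.47 in young mice (log2 difference -0.63, SE 0.05, limma adjusted p = 0.00468).

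Grem1, the antagonist that binds BMP ligands near the crypt base, had proximal log2 intensities of 5.05 (high-fat) and 5.27 (low-fat) in old mice, against 5.69 and 5.90 in young mice. Its middle values were 5.83 and 5.82 in old mice, against 6.04 and 5.97 in young mice. Distally the values were 6.33 and 6.58 in old mice, against 6.97 and 7.24 in young mice. Both old arrays lay below both young arrays in each of the 3 segments. Of all genes tested, 1.56% had this order in all 3 segments, and 16.4% had it proximally, 12.7% in the middle and 18.6% distally. Over the pools Grem1 fell to 5.81 in old mice, against 6.30 in young mice (log2 difference -0.49, SE 0.05, limma adjusted p = 0.00688).

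Thus 3 of the 7 genes passed with a lower level in old mice, against 2.16% of all genes tested (257 of 11920), while 0.772% passed as higher. Because the genes were chosen with earlier results of these data known, this comparison is a description and not a test of the set. The other 4 did not pass. All 7 had an unadjusted p under 0.05, which does not count as a call. Here and below, the share of all genes with such an unadjusted p is not given. Fgf7, a mesenchymal growth factor for epithelial cells, had proximal log2 intensities of 5.30 (high-fat) and 5.11 (low-fat) in old mice, against 5.76 and 6.35 in young mice. Middle values of Fgf7 were 5.74 and 5.04 in old mice, against 5.76 and 5.26 in young mice, and distal values 4.77 and 4.96 in old mice, against 4.85 and 5.47 in young mice. Both old arrays lay below both young arrays proximally, as in 16.4% of all genes tested, and the ages were close on the high-fat diet elsewhere. The Fgf7 difference over the pools was -0.42 (limma adjusted p = 0.0954). Wnt5a, a noncanonical Wnt ligand, had proximal values of 5.64 and 5.70 in old mice, against 5.93 and 6.45 in young mice. Its middle values were 6.30 and 5.56 in old mice, against 6.16 and 6.13 in young mice, and its distal values 5.46 and 5.91 in old mice, against 5.68 and 6.08 in young mice. Here the middle high-fat array of old mice was the highest of its segment, and the difference over the pools was -0.31 (limma adjusted p = 0.131). Sfrp1, which sequesters Wnt ligands, had 5.58 and 5.63 proximally in old mice, against 5.63 and 6.36 in young mice. In the middle segment Sfrp1 had 5.76 and 5.51 in old mice, against 5.75 and 5.85 in young mice, and distally 5.55 and 6.21 in old mice, against 5.87 and 6.32 in young mice. The proximal low-fat pair was the farthest apart (-0.72), and the difference over the pools was -0.25 (limma adjusted p = 0.135). Bmp2 had 6.54 and 6.75 proximally in old mice, against 6.82 and 7.08 in young mice, with a difference over the pools of -0.24 (limma adjusted p = 0.105). Fitted without the intensity filter, Rspo3 (-0.07, adjusted p = 0.644) and Foxl1 (0.01, adjusted p = 0.976) did not pass either. The fit rests on 4 pools with 1 residual degree of freedom, so its error is largely the variance limma borrows from all genes. Each of the 3 calls held under all 10 alternatives, with the largest adjusted p at 0.0395 for Bmp4, 0.0435 for Bmp5 and 0.0435 for Grem1.

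**Figure D1:**
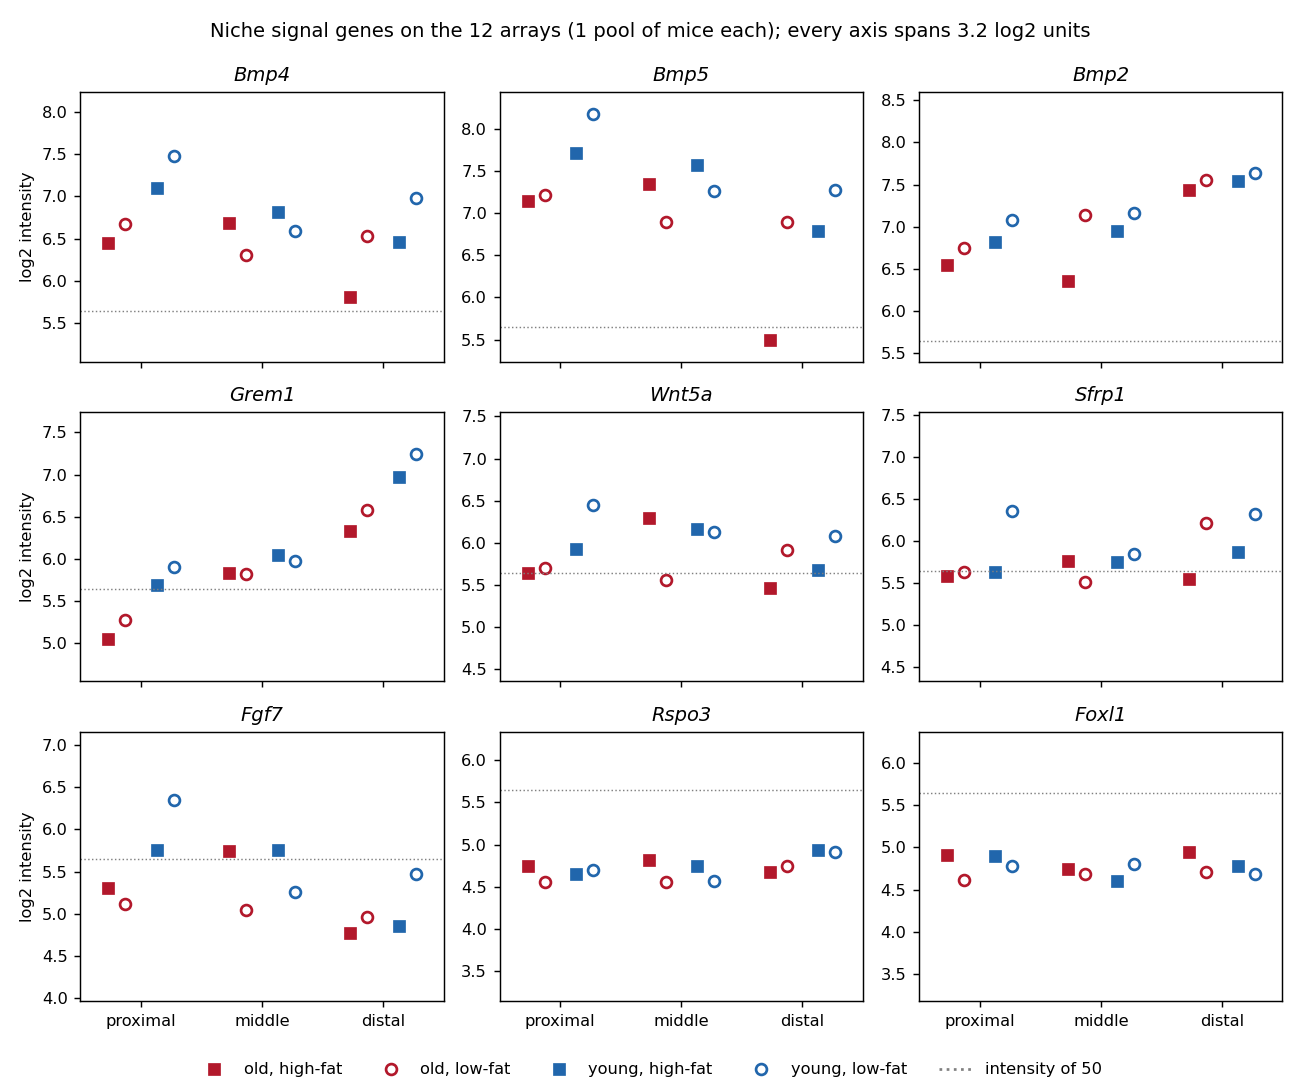
Log2 intensity (vertical axis) of the 9 genes on the 12 arrays by segment (horizontal axis), with old mice in red left of young mice in blue, the high-fat diet as filled squares and the low-fat diet as open circles, and a dotted line at an intensity of 50. Rspo3 and Foxl1 lie under the line on every array, while Grem1 climbs towards the distal segment in all 4 pools.

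Taken pair by pair, 5 of the 7 genes (Bmp2, Bmp4, Bmp5, Grem1 and Fgf7) were lower in old mice in all 6 pairs of arrays, as were 4.37% of all genes tested. Wnt5a and Sfrp1 were lower in 5 of 6 pairs, the exception being the middle high-fat pair (0.14 and 0.01). Differences over 2-fold were seen in 2 of the pairs: Fgf7 in the proximal low-fat pair (-1.24), where 0.185% of all genes were over 2-fold lower, and Bmp5 in the distal high-fat pair (-1.29), where 0.52% were. Each is the difference of 1 array from 1 other and has no replicate error. In both pairs the old array was under an intensity of 50, at 34.6 for Fgf7 and 45.2 for Bmp5, so each difference is from a dim value. The age difference of Grem1 was close to the same on both diets (proximal -0.64 on the high-fat and -0.63 on the low-fat diet, distal -0.64 and -0.66). That of Bmp5 in the distal segment was -1.29 on the high-fat and -0.39 on the low-fat diet, a difference of -0.90 that the 4 arrays allow no test of. For Fgf7, Sfrp1 and Wnt5a the proximal age difference was larger on the low-fat diet, by 0.77, 0.68 and 0.46, also untested.

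Within segments, Bmp4 and Grem1 passed in the proximal segment (log2 difference -0.73, limma adjusted p = 0.0476, and -0.64, 0.0453), as did 0.0839% of all genes in this direction. Both old proximal arrays of Grem1 were under an intensity of 50 (33.2 and 38.5), against 51.8 and 59.7 in young mice. In the distal segment Bmp4 and Grem1 passed as well (Bmp4 -0.55, limma adjusted p = 0.0496, and Grem1 -0.65, 0.0198), as did 0.47% of all genes. The distal Bmp4 call was lost with the pool as a random block (limma adjusted p = 0.0501), from the segment alone (0.0816) and with the pancreas genes kept (0.0533). None of the 7 passed in the middle segment, where 0.00839% of all genes were called lower and where the difference was -0.21 for Bmp4, -0.29 for Bmp5 and -0.18 for Grem1 (3 of 7 had an unadjusted p under 0.05). Leaving out any 1 of the 4 arrays of a segment ended the proximal and distal calls, and so did leaving dim genes in for all but the distal call of Grem1. Tested for a difference between segments, the age contrast of none of the 7 passed in limma. For Grem1 distal minus middle it was -0.47 (adjusted p = 0.402), where 2 of 7 genes had an unadjusted p under 0.05 and 0.0% of all genes passed. For Bmp4 middle minus proximal it was 0.52 (adjusted p = 0.84), where 3 of 7 had an unadjusted p under 0.05 and 0.0168% of all genes passed as higher.

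Markers of the cells that make these signals were also lower in old mice over the pools. Of the genes tested, 10 of 13 smooth muscle markers passed as lower in limma (median log2 difference -0.69), as did 11 of 14 fibroblast and matrix markers (-0.40), 4 of 6 telocyte markers (-0.41) and 7 of 12 endothelial markers (-0.29), where 2.16% of all genes passed as lower with a median of 0.01. Examples were Myh11, smooth muscle myosin heavy chain (-0.99, limma adjusted p = 0.00258), Sparcl1, a matrix protein (-0.74, 0.00258), and Pdgfra, the PDGF receptor of stromal cells (-0.54, 0.00524). None of 12 pan-epithelial markers passed (median -0.03, 1 with an unadjusted p under 0.05), and all 12 exceeded 50 on an array, with a summed intensity of 37600 to 47400 on old and 38300 to 47400 on young arrays. The summed intensity of the fibroblast list ranged from 2360 to 3280 on old arrays and from 3260 to 4090 on young arrays. For smooth muscle the range was 1270 to 3450 on old and 1570 to 6230 on young arrays, for telocytes 529 to 769 on old and 652 to 906 on young arrays, and for endothelium 677 to 897 on old and 835 to 1310 on young arrays. Not over 50 on any array were Lum, Mfap4, Mfap5, Loxl1 and Pi16 of the fibroblast list, Casq2 of smooth muscle, Tslp of telocytes and Prox1 of endothelium. These lists were also chosen with earlier results of these data known, so their counts against all genes are descriptions. The part of these markers in the age differences of the niche signals was not tested, and in bulk scrapings fewer cells of a type and less RNA per cell cannot be told apart.

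**Figure D2:**
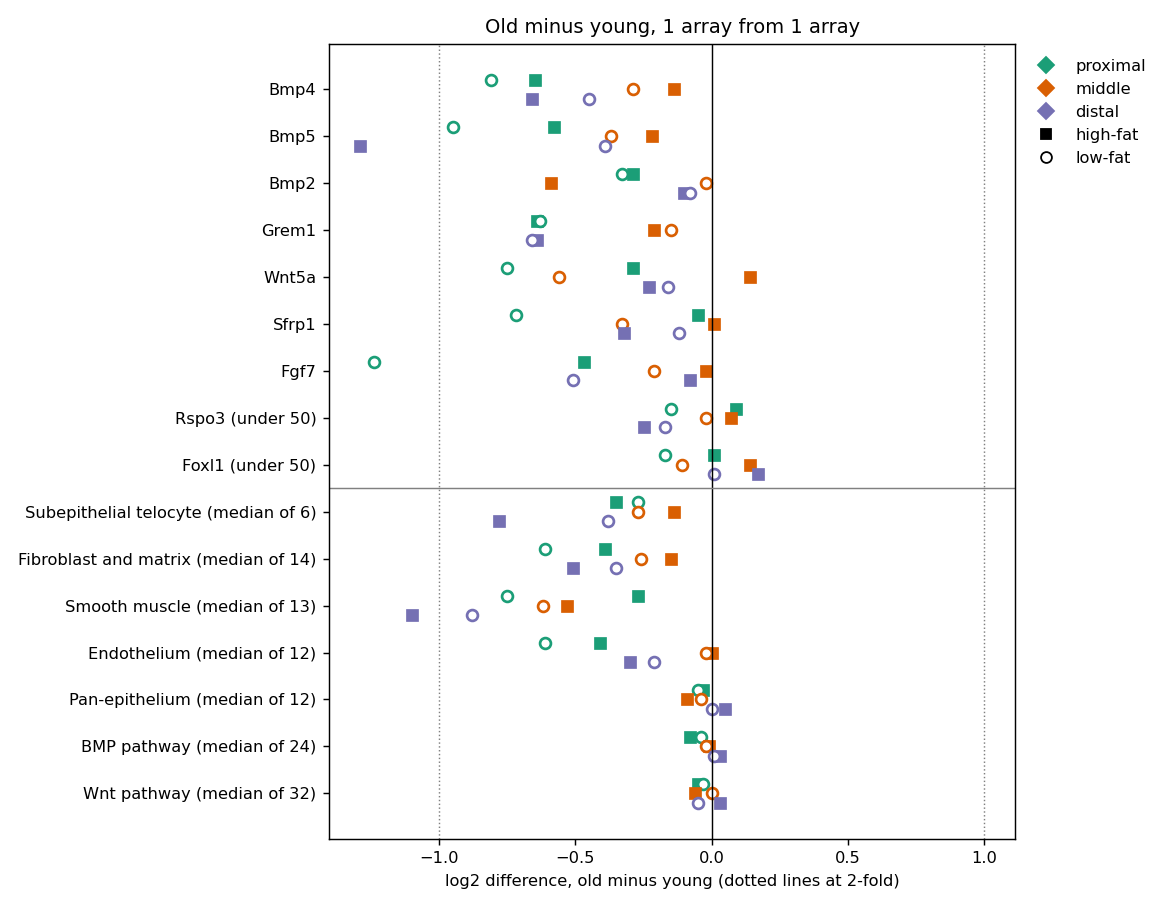
Log2 difference, old minus young (horizontal axis), for each of the 6 pairs of arrays, by gene and, below the line, as the median of 7 marker and pathway lists; colour gives the segment, filled squares the high-fat and open circles the low-fat diet. Bmp4, Bmp5 and Grem1 lie left of 0 in all 6 pairs, as do the telocyte, fibroblast and smooth muscle medians, while the epithelial, BMP and Wnt pathway medians lie near 0.

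Further genes of these pathways were set against all genes tested, of which 2.16% passed as lower and 0.772% as higher with age over the pools. In the BMP pathway none of the 24 further genes tested passed in limma over the pools (median log2 difference -0.03), and 2 of the 24 had an unadjusted p under 0.05. The 24 were other Bmp genes (4, of which Bmp1 codes for a protease and not a ligand), receptors (5), signal transducers (4), targets and feedback genes (7) and other antagonists (4). The largest difference was that of Fstl1, a follistatin-like protein (-0.22, limma adjusted p = 0.0797), and Bambi, a decoy receptor induced by BMP signals, had -0.15 (0.165). In the Wnt pathway 1 of 32 passed, Dkk3 of the Dickkopf family (-0.27, limma adjusted p = 0.0403). Lgr5, the R-spondin receptor that marks crypt stem cells, had -0.26 (0.0765). In the Hedgehog pathway, through which epithelium instructs the stroma, 2 of 10 passed, the stromal forkhead factor Foxf2 (-0.31, limma adjusted p = 0.0363) and the co-receptor Gas1 (-0.30, 0.044). Among 12 FGF and PDGF genes, Pdgfc (-0.59, limma adjusted p = 0.00524) and Pdgfra, also counted among the telocyte markers, passed. Of 4 other niche signals, Ereg, an EGF family ligand, passed (-0.33, limma adjusted p = 0.049).

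The second question was where along the small intestine each signal was highest. Grem1 rose along the gut, and Bmp4, Bmp5 and Fgf7 were lower in the distal than in the proximal segment. Mean log2 intensity of Grem1 over the 4 pools was 5.48 proximally, 5.91 midway and 6.78 distally, and each step passed in limma: middle minus proximal 0.43 (SE 0.11, adjusted p = 0.0156), distal minus middle 0.86 (SE 0.11, 0.000221) and distal minus proximal 1.30 (SE 0.11, 4.45e-06). The lowest distal value (6.33) exceeded the highest proximal value (5.90), an order that 23.0% of all genes tested had. The middle minus proximal call was lost without the pool of old low-fat mice (adjusted p = 0.104) or of young high-fat mice (0.0635).

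Bmp2, made by epithelium as well as stroma, had middle log2 intensities of 6.36 (high-fat) and 7.14 (low-fat) in old mice, against 6.95 and 7.16 in young mice. Distally it had 7.44 and 7.56 in old mice, against 7.54 and 7.64 in young mice. It averaged 6.80, 6.90 and 7.54 along the 3 segments. Its distal minus proximal difference was 0.74 (limma adjusted p = 0.000127) and its distal minus middle difference 0.64 (0.000871), while middle minus proximal was 0.10 (95% CI -0.12 to 0.33, 0.493). The 4 distal arrays lay above all others. Distal arrays wholly above the proximal ones alone, a weaker condition, were seen in 23.0% of all genes.

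Bmp4 averaged 6.92, 6.60 and 6.44 and Bmp5 7.57, 7.27 and 6.62 in the proximal, middle and distal segment. Distal minus proximal, Bmp4 fell by 0.48 (limma adjusted p = 0.0408) and Bmp5 fell by 0.95 (0.00956), and neither neighbouring step passed for either gene. On the low-fat diet Bmp4 was higher distally than in the middle segment, at 6.53 against 6.30 in old and 6.98 against 6.59 in young mice. Fgf7 averaged 5.63, 5.45 and 5.01 and fell by 0.62 between the same segments (limma adjusted p = 0.0325), with all 4 distal arrays under an intensity of 50 (27.3 to 44.4). Fgf7 was kept for testing through proximal and middle arrays alone, so its distal difference is between dim values, and without the filter the adjusted p was 0.04. The calls of Bmp4 (limma adjusted p = 0.153) and Fgf7 (0.133) were lost without the pool of young high-fat mice and with no term for the pool (0.116 and 0.0571), and that of Bmp4 also without the pool of young low-fat mice (0.0521) or the filter (0.0514). Wnt5a (distal minus proximal -0.15, 95% CI -0.52 to 0.22) and Sfrp1 (0.19, -0.11 to 0.50) did not pass.

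So 2 of 7 genes were higher and 3 of 7 lower in the distal than in the proximal segment, where 27.3% of all genes were called higher and 27.5% lower. Distal against middle, 2 of 7 were higher, against 14.6% of all genes (20.0% lower), and middle against proximal 1 of 7, against 14.0% (10.9% lower). The distance between the Bmp4 and Grem1 values on the same array changed along the gut, mostly through Grem1 (distal minus proximal 1.30, against -0.48 for Bmp4). It lay between -0.53 and -0.05 on distal arrays, against 1.39 to 1.58 on proximal arrays. Only its change along the gut can be read, since the 2 probe sets need not be equally bright per transcript. Smooth muscle markers had a like course to Grem1, with 12 of 13 higher in the distal than in the proximal segment in limma (median log2 difference 1.38) and a summed intensity of 2220 to 6230 on distal, against 1270 to 1980 on proximal arrays. This course was not particular to muscle. Over the 12 arrays the Pearson r of Grem1 was 0.97 with the smooth muscle mean. It was also 0.92 with crypt stem cell, 0.91 with pan-epithelial and 0.88 with B cell markers, against 0.67 with fibroblast and -0.13 with endothelial markers. Fibroblast markers had a median distal minus proximal difference of 0.09, and endothelial markers of -0.28. The part of these cells in the segment differences was not tested.

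The genes whose levels were most like those of the 7 tested genes over the 12 arrays included stromal, vascular, muscle and epithelial genes. The genes closest to Grem1 were Pgm5 (Pearson r = 0.98), a protein of muscle adhesions, Myh11 (0.98) and Pam (0.97), a peptide-amidating enzyme. Bmp4 was closest to Kdr (0.98), the endothelial VEGF receptor, and to Tmem176b and Adgrl4 (0.95 each). Bmp5 was closest to Col6a4, a collagen VI chain and telocyte marker, Olfml3 and Entpd1 (0.96 each). For Fgf7 they were Cd93 (0.93), an endothelial receptor, Tmem178 and Tgfb1 (0.91 each), for Wnt5a Zeb2 (0.86), Lamb1 and Pradc1 (0.83 each), and for Sfrp1 Far1 (0.89), Elk3 and Gucy1a1 (0.86 each). Bmp2 was closest to Slc44a4, Galnt3 and Itgb6 (0.95 each), of which Itgb6 is an epithelial integrin chain. These correlations describe 12 arrays that share segments, mice and normalization.

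With the segment means removed, Bmp2 had a lower correlation with the fibroblast markers than the other 6 genes. Against the mean of the fibroblast markers, r was 0.97 for Bmp4, 0.97 for Bmp5, 0.90 for Grem1, 0.84 for Wnt5a, 0.82 for Fgf7 and 0.80 for Sfrp1, but 0.25 for Bmp2. Against the pan-epithelial markers it was 0.82 for Bmp2 and between 0.41 and 0.53 for the other 6. The pan-epithelial list moved little, with age and diet pair medians from -0.09 to 0.05. Bmp2 was low on the old high-fat middle array (6.36, against 6.95 or above on the other middle arrays). The weight of that array in the r of 0.82 was not tested. Other lists did not divide the same way for Bmp2, with 0.51 for smooth muscle, 0.46 for crypt stem cells and -0.32 for villus enterocytes. Bmp4 and Bmp5 followed each other (0.96), and Bmp4 followed its antagonist Grem1 (0.92). Rspo3 (0.63) and Foxl1 (-0.31), both dim, followed the fibroblast markers less or not at all. At this level the telocyte label of Foxl1 could not be checked.

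**Figure D3:**
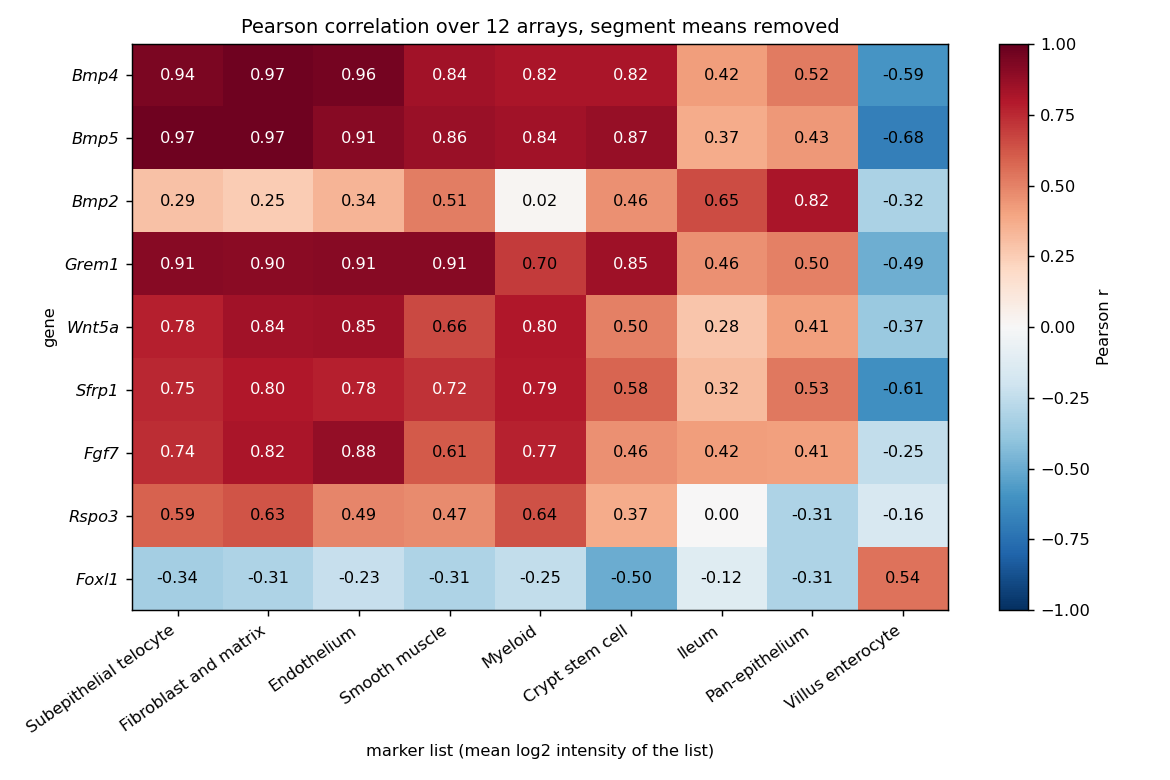
Pearson correlation of each gene (rows) with the mean log2 intensity of 9 marker lists (columns) over the 12 arrays after each segment's mean was removed, from blue at -1 to red at 1. The rows of Bmp4, Bmp5 and Grem1 are at 0.90 or more for the telocyte, fibroblast and endothelial lists, whereas Bmp2 has its highest value, 0.82, for the pan-epithelial list.

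The third comparison asked what the high-fat diet changed. Over the pools Bmp5 and Bmp2 passed as lower on the high-fat diet, with log2 differences of -0.28 (SE 0.05, limma adjusted p = 0.0325) and -0.28 (SE 0.06, 0.0466), that is 2 of 7 genes against 3.17% of all genes tested (2.54% passed as higher). Bmp4 had -0.21 (limma adjusted p = 0.0571), Sfrp1 -0.29 (0.0666), Grem1 -0.14 (0.137) and Wnt5a -0.11 (0.478). Neither call held after median centring of the arrays (limma adjusted p = 0.0727 for Bmp2 and 0.0527 for Bmp5). The Bmp2 call was lost without any 1 segment, with a difference of -0.17 without the middle one, while that of Bmp5 was lost without the proximal segment (adjusted p = 0.097) and its difference was 0.05 without the distal one.

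Segment by segment the diet differences varied in sign. In the distal segment Bmp4 was 5.80 (old) and 6.46 (young) on the high-fat diet, against 6.53 and 6.98 on the low-fat diet, and passed as lower (log2 difference -0.62, limma adjusted p = 0.0378), as did 0.168% of all genes. Leaving out any 1 of the 4 distal arrays ended this call. Bmp5 had the same direction distally (-0.95, limma adjusted p = 0.0961), with 5.50 (old) and 6.79 (young) on the high-fat diet, against 6.90 and 7.28 on the low-fat diet. The old pair differed by -1.40, past 2-fold, as did 0.411% of all genes in this direction. The high-fat array of the old pair was under an intensity of 50 for Bmp5, at 45.2, against 119 on the low-fat array. In that pair 6 of 6 B cell markers (median -0.68), 8 of 8 T cell markers (-0.38) and 9 of 10 myeloid markers (-0.33) were also lower. The medians of these lists in the young pair were 0.32, 0.03 and -0.08. In the old pair 1 of 10 villus enterocyte markers (0.33) and 5 of 12 pan-epithelial markers (0.05) were lower on the high-fat diet. The part of these cells was not tested. All 7 genes had negative differences proximally and distally, whereas 6 of 7 had positive ones in the middle, although those of Grem1 (0.04) and Sfrp1 (0.08) were small. These are means of the old and the young pair, which did not always agree. Proximally Fgf7 had 0.19 in old and -0.59 in young mice, and in the middle Sfrp1 had 0.25 and -0.10. None passed proximally, where 0.0839% of all genes were called lower and 0.235% higher. None passed in the middle either, where 1.23% were called lower and 1.31% higher. In each of these segments 3 of 7 had an unadjusted p under 0.05. The 7 genes had a median of -0.42 distally and 0.31 in the middle, against -0.01 and 0.00 over all genes. Middle differences were 0.31 for Bmp4 (limma adjusted p = 0.129), 0.37 for Bmp5 (0.374), 0.38 for Wnt5a (0.294) and 0.60 for Fgf7 (0.145). Fgf7 was over an intensity of 50 in this segment on the high-fat arrays alone (53.4 in old and 54.2 in young mice). Its low-fat arrays had 33.0 and 38.3, so its middle difference is from dim values.

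Bmp2 was the exception in the middle segment, where both high-fat arrays were below their low-fat partners (log2 difference -0.49, limma adjusted p = 0.0999). The old high-fat array stood apart from the other middle arrays, all at 6.95 or above. On that array 7 ileal genes had a median difference of -0.44 from the young high-fat array (7 of 7 lower) and of -0.36 from the old low-fat array (6 of 7 lower). Fabp6, the ileal bile acid binding protein, had -3.73 and -1.26 in these pairs. Its intensity was 191 on that array, against 460 (old low-fat), 717 (young low-fat) and 2540 (young high-fat). Slc10a2 of the ileal list had 221 there, against 114, 178 and 980. Thus the young high-fat array was the highest for both genes, and Slc10a2 was higher on the old high-fat array than on either low-fat array. The part of the ileal genes in the Bmp2 value was not tested.

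The difference of the diet contrast between segments was tested after the values had been seen. Distal minus middle, it was -0.93 for Bmp4 (SE 0.12, limma adjusted p = 0.0675), -1.32 for Bmp5 (SE 0.28, 0.191), -1.0 for Fgf7 (SE 0.26, 0.227) and -0.81 for Wnt5a (SE 0.24, 0.27). None passed, although 6 of 7 had an unadjusted p under 0.05, and 0.0503% of all genes were called lower in this contrast. The median diet difference of fibroblast markers was -0.39 in old and -0.19 in young mice distally, 0.34 and 0.23 in the middle, and 0.05 and -0.14 proximally. For telocyte markers it was -0.55 and -0.21 distally, 0.28 and 0.09 in the middle, and -0.04 in both ages proximally. Smooth muscle markers had -0.55 and -0.40 distally, -0.02 and -0.07 in the middle, and 0.02 and -0.21 proximally, so that they lacked the positive middle difference. Summed intensities on high-fat arrays were 2360 to 3600 (fibroblast) and 558 to 855 (telocyte), against 2890 to 4090 and 529 to 906 on low-fat arrays. The part of these markers in the diet differences was not tested. Among the other pathway genes, Id2, a BMP target (-0.33, limma adjusted p = 0.0182), Bambi (-0.28, 0.0235) and the Wnt receptor Fzd4 (-0.36, 0.0165) passed as lower on the high-fat diet over the pools, 2 of 24 BMP and 1 of 32 Wnt pathway genes, against 3.17% of all genes.

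**Figure D4:**
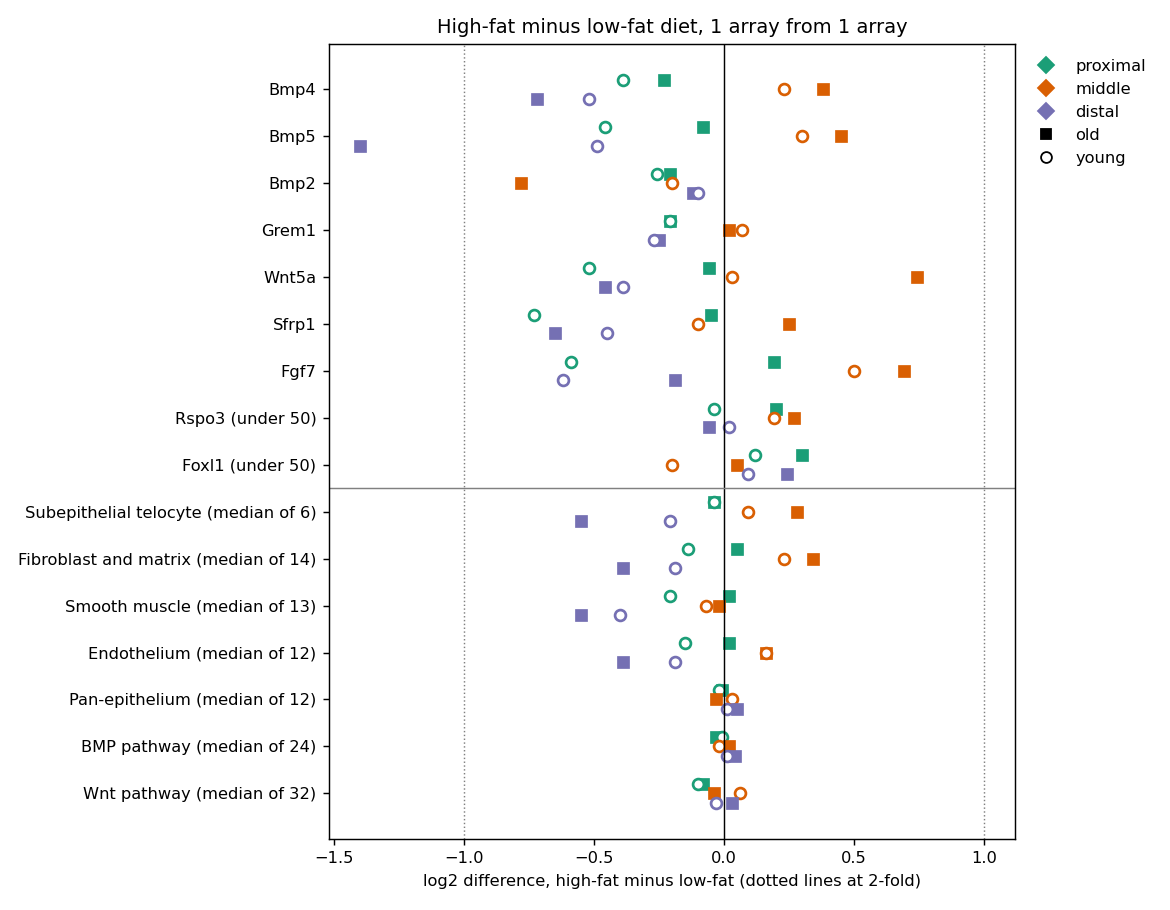
Log2 difference, high-fat minus low-fat (horizontal axis), for each of the 6 pairs of arrays, by gene and, below the line, as the median of 7 lists; colour gives the segment, filled squares old and open circles young mice. Bmp4 and Bmp5 lie left of 0 in the proximal and distal pairs and right of 0 in the middle pairs, and the distal pair of old mice has the lowest Bmp5 value (-1.40).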

How the data were processed

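RNA of mucosal scrapings was pooled per diet and age group and hybridized by the authors to 12 arrays, 1 per segment and pool. The authors deposited log2 values from RMA, which corrects background, normalizes arrays and summarises probes (version not given in the sources used here). The table runs from 1.8 to 14.49, and array medians from 5.57 to 5.70. Of 35556 probe sets, 21789 have 1 symbol in the platform annotation, 1621 several and 12146 none, and the brightest by the mean of 12 arrays stood for a gene. After the study's methods, a gene had to exceed an intensity of 50 on 1 or more arrays, and acinar pancreas genes were removed.

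limma 3.58.1 (R 4.3.3, statmod 1.5.0) was fitted to the means of the 4 pools (1 residual degree of freedom), to the arrays with age and diet within segment (3), and to segment and pool (6). The other diet or age served as the repeat, so any age by diet interaction enters the error. Benjamini-Hochberg adjusted p-values under 0.05 over all 11920 genes count as passed. With 1 pool for each age and diet, they do not measure the spread between replicate pools. In the pool and within-segment fits the error is the disagreement between the repeated pairs. The within-segment fit treats the segments of a pool as independent. In the segment fit the error is the variation of segment differences among pools. The number of arrays limits the precision. The script was tested on simulated data. Correlations and counts used Python 3.11.15, pandas 2.3.3 and numpy 2.4.6.

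The 9 genes and the marker and pathway lists were chosen with earlier results of these data known. Beyond the 9 genes, the text names list members that passed or had the 4 largest differences in the contrast described, and the 3 genes most correlated with each. Alternatives covered the intensity filter, the pancreas genes, centring, quantile normalization, the mean of probe sets, the limma prior, a pool block, a segment alone, and each array, pool or segment left out. Gene positions and promoters are from RefSeq GRCm38.p6, where 4 of 9 genes had a promoter.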

Additional observations from a re-analysis of the deposited data

Results flagged for a closer look

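The diet difference of 5 genes ran in opposite directions in 2 segments, on every array pair of old and of young mice. None of these differences passed in limma after adjustment over all genes, and the test was added after the values had been seen. Distal minus middle segment, the contrast of the high-fat minus low-fat log2 differences was -0.93 for Bmp4 (limma adjusted p = 0.0675), -1.32 for Bmp5 (adjusted p = 0.191), -1.0 for Fgf7 (adjusted p = 0.227), -0.81 for Wnt5a (adjusted p = 0.27) and -0.31 for Grem1 (adjusted p = 0.29). Middle minus proximal segment, it was 0.61 for Bmp4 (limma adjusted p = 0.315), 0.64 for Bmp5 (adjusted p = 0.739), 0.67 for Wnt5a (adjusted p = 0.644) and 0.25 for Grem1 (adjusted p = 0.684). For these genes both high-fat arrays of the middle segment were above their low-fat partners, and both of the distal or proximal segment were below. For Grem1 the middle differences were only 0.02 in old and 0.07 in young mice, so it had next to no rise there.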

How the results depend on the processing

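The calls of Bmp4, Bmp5 and Grem1 for age over the pools, of Grem1 and Bmp2 for distal against middle and distal against proximal, and of Bmp5 for distal against proximal held under every alternative run. For age over pools, 349 genes were called in all, and 702 with an intensity trend and robust prior, 87 without the intensity filter, 200 after quantile normalization, 84 without the distal and 220 without the middle segment. The replicate numbers pair no samples, since each group of segment, age and diet holds 1 array. Arrays of 1 pool were paired through a term for the pool between segments. Within segments the main fit had no such pairing, and the pool as a random block was run only as an alternative. The cause of each change below was not tested.

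For age within segments, 13 genes and 2 of the 7 niche genes were called in the proximal segment. The genes were 77 with the intensity trend, 2 without the filter and 0 from the segment alone, and 0 to 4 with 1 array left out. The niche genes were 0 without the filter, 1 with the pancreas genes kept, 0 from the segment alone and 0 with any array left out. In the middle segment 3 genes were called, and 7 with intensity over 100, 30 with the trend, 1 without the filter, 19 from the segment alone and 0 to 8 with 1 array left out. In the distal segment 78 genes and 2 niche genes were called. The genes were 451 with the trend, 31 without the filter and 1 to 67 with 1 array left out. The niche genes were 1 without the filter, with the pancreas genes kept, with the pool as a random block or from the segment alone, and 0 to 1 with 1 array left out.

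For diet over pools, 681 genes and 2 niche genes were called. The genes were 1431 with the trend, 188 without the filter, 450 without the distal and 132 without the middle segment. The niche genes were 4 with the trend, 1 with the mean of probe sets or the pancreas genes kept, and 0 after centring, after quantile normalization, without the filter, or without the distal or the proximal segment. In the proximal segment 38 genes were called, and 95 with intensity over 100, 234 with the trend, 16 from the segment alone and 13 to 32 with 1 array left out. In the middle segment 303 genes and 0 niche genes were called. The genes were 507 with intensity over 100, 858 with the trend, 152 without the filter, 491 from the segment alone and 26 to 47 with 1 array left out, and the niche genes were 1 with the trend (Bmp2) and 1 from the segment alone (Fgf7). In the distal segment 63 genes and 1 niche gene were called. The genes were 117 with intensity over 100, 435 with the trend, 36 without the filter and 9 to 61 with 1 array left out. The niche genes were 2 with the trend, 0 without the filter or from the segment alone, and 0 to 1 with 1 array left out.

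Between segments, 4127 genes were called distal against middle and 2975 middle against proximal, and 2516 to 4003 and 1557 to 3127 with 1 pool left out. The niche genes were 2 distal against middle (2 to 4 with 1 pool left out), 5 distal against proximal (3 to 5, and 3 with no term for the pool) and 1 middle against proximal (0 to 2, and 0 with no term for the pool). At a threshold of 1.5-fold, 13 gene and age pairs and 9 gene and diet pairs passed, against 2 and 1 at 2-fold.

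Signs turned for differences that had not passed, with Bmp5 for diet as the exception. With 1 array or pool left out, the log2 difference ranged from -0.34 to 0.08 for Bmp4 distal minus middle, from -0.59 to 0.19 for Fgf7 with diet in the proximal segment, from -0.39 to 0.12 for Fgf7, -0.17 to 0.06 for Sfrp1 and -0.08 to 0.25 for Wnt5a middle minus proximal, from -0.33 to 0.01 for Sfrp1 and -0.56 to 0.14 for Wnt5a with age in the middle segment, and from -0.10 to 0.25 for Sfrp1 with diet in the middle segment. For diet over pools without the distal segment, Bmp5 had 0.05, Wnt5a 0.05 and Fgf7 0.20. Fgf7 also had 0.01 after centring, 0.03 after quantile normalization and 0.10 without the proximal segment.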
